A study of Homo sapiens with 9 samples.

Results

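DDIT4, DDIT4L, SESN1, SESN2, SESN3, GADD45A, GADD45B, GADD45G, TXNIP and ARRDC4 encode stress-induced brakes on growth, and they were taken by symbol from the count table of uCaco-2 cells. All 10 symbols were present among the 60591 of the table, and all 10 were among the 15944 genes that passed the expression filter. uCaco-2 are undifferentiated, dividing cells of the human colon adenocarcinoma line Caco-2. They were kept for 24 h with 300 μM CoCl2 (cobalt (II) chloride), with 5 μM of the oxyquinoline derivative (OD) 4896-3212, or in fresh medium (control). Every condition, control included, had 0.5% DMSO as the labels state it. Each condition had 3 biological replicates of 1 cell line, so the p-values speak of these cultures and not of people or cell lines. Those of edgeR use a spread for each gene that is moderated by all tested genes, not that of its own libraries alone.

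Both chemicals are used to stabilise hypoxia-inducible factors (HIF), CoCl2 by taking the place of iron in the prolyl hydroxylases and the oxyquinoline derivatives by blocking their active site. DDIT4 encodes REDD1, a HIF target whose protein acts through the tuberous sclerosis complex to hold back mTORC1, the kinase complex that drives protein synthesis and growth. The sestrins (SESN1, SESN2, SESN3) hold back the same kinase by binding the GATOR2 complex, SESN2 as a sensor of leucine, and they also take part in the defence against oxidants. The GADD45 proteins are small nuclear proteins that slow the cell cycle and activate stress kinases. TXNIP binds thioredoxin and lowers glucose uptake, ARRDC4 is its close relative among the α-arrestins, and both genes are known to be switched on by the glucose-sensing factors MondoA (MLXIP) and ChREBP (MLXIPL) with their partner MLX.

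The 9 libraries held 15998136 to 24209427 counts. TMM factors, which correct for library composition, lay between 1.11 and 1.15 in the control and OD libraries and between 0.770 and 0.795 in the CoCl2 libraries. Of 10 markers of colon epithelium, 9 were at 1 CPM or more in every condition, while CDX1 had no count in any library. The summed level of these markers was 11105 to 11646 CPM in control cells, 13310 to 14266 under CoCl2 and 10569 to 11123 under OD, and that of 12 markers of other cell types was 32.6 to 41.8, 33.2 to 35.2 and 35.8 to 38.9 CPM, mostly ALB and COL1A1. Among the epithelial markers VIL1, a microvillus protein, averaged 613 CPM in control, 112 in CoCl2 and 454 in OD libraries. KRT20 was also lower with CoCl2 than in control, and all other epithelial markers with counts were higher. The part of such shifts in the results below was not tested. In bulk RNA such as this, fewer cells with a transcript and less of it per cell cannot be told apart.

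Levels in CPM are counts brought to a common library total with the TMM factors. To be called, a gene needed an adjusted p below 0.05 (edgeR, Benjamini-Hochberg over all tested genes) together with a log2 fold change larger in size than 1. With CoCl2, 6 of the 10 genes were upregulated (DDIT4, SESN2, GADD45A, GADD45B, GADD45G and ARRDC4), against 19.9% of all tested genes, and 0 were downregulated, against 23.4%. With OD, 4 were upregulated (DDIT4, DDIT4L, SESN2 and TXNIP), against 9.09% of all tested genes, and 0 were downregulated, against 4.16%. DESeq2 gave the same counts in both comparisons. The only value below control at an unadjusted p under 0.05 was that of SESN1 with CoCl2. Without the requirement on fold change, 7 genes were higher and 1 lower with CoCl2, against 40.4% and 42.8% of all tested genes, and all 10 were higher with OD, against 32.3%. The median log2 fold change of the 10 genes was 2.91 with CoCl2 and 0.87 with OD, beside medians of -0.049 and -0.010 over all tested genes. Treated and control libraries were fully separated for 9 of the 10 genes with CoCl2 and for all 10 with OD, as were those of 83.4% and 68.0% of all tested genes. For each of these the exact permutation test gave 0.1, the smallest p that 3 libraries against 3 allow.

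**Figure D1:**
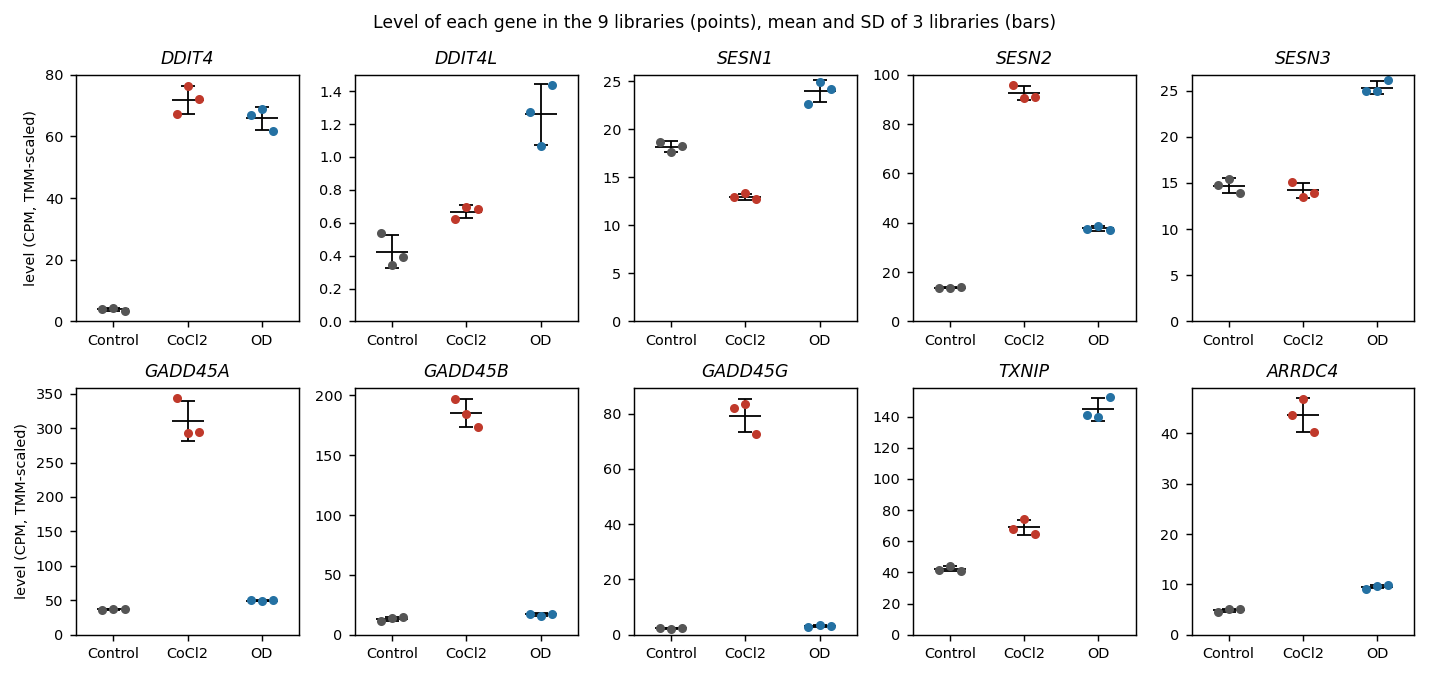
Level of each of the 10 genes in CPM (vertical axis, from 0) in the 3 control, 3 CoCl2 and 3 OD libraries, with points for libraries and bars for the mean and SD. DDIT4 is high with both chemicals, the 3 GADD45 genes and ARRDC4 are highest with CoCl2, and TXNIP, SESN1, SESN3 and DDIT4L are highest with OD.

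The direct comparison of the chemicals put some of these genes higher with CoCl2 and others higher with OD. In it, 5 genes were higher with CoCl2 than with OD (SESN2, GADD45A, GADD45B, GADD45G and ARRDC4), against 17.5% of all tested genes, and TXNIP was lower, against 23.8%. By the adjusted p alone 6 were higher and 4 lower, against 40.2% and 43.2% of all tested genes, and the libraries did not overlap for 9 genes, as for 83.8% of all. Without composition factors (library size alone) the median over all genes moved to -0.55 for CoCl2 against control and from -0.054 to -0.60 for CoCl2 against OD. The direct comparison then put 4 of the 10 genes higher and 4 lower with CoCl2, in place of 5 and 1. Shares of all tested genes are given with TMM factors only. Counts for library size alone, here and for the lists below, thus show the dependence on scaling and are no result about these genes. Comparisons with control share the control libraries, so the values with CoCl2 and OD are set side by side below and the difference between the chemicals is taken from its own test.

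**Figure D2:**
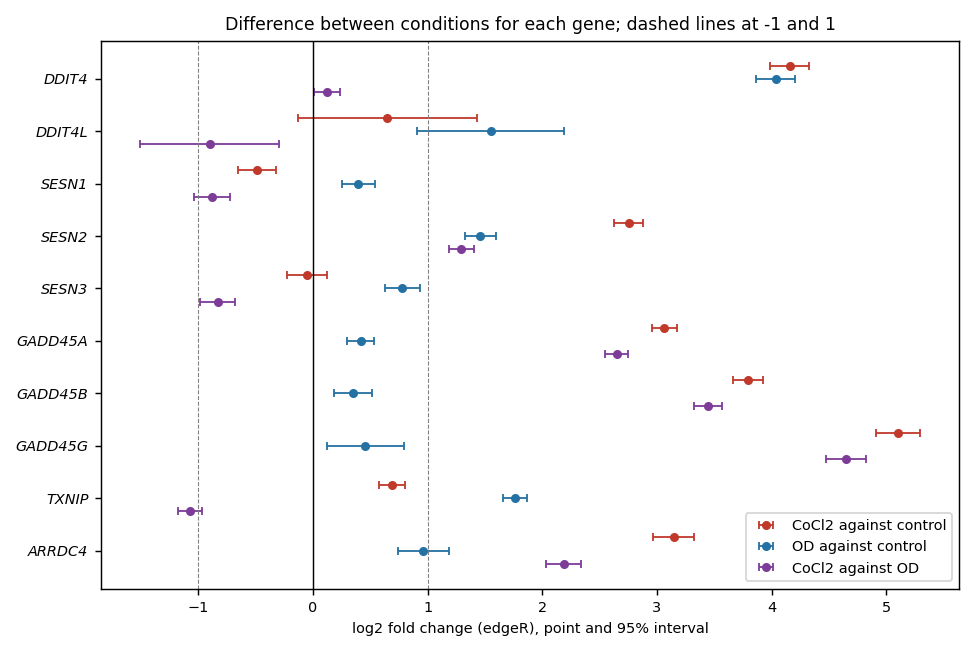
Log2 fold change of each gene (horizontal axis) with its 95% interval for CoCl2 against control, OD against control and CoCl2 against OD, from edgeR. The interval for DDIT4 between the chemicals runs from 0.012 to 0.23, whereas those of the 3 GADD45 genes lie beyond 2.5.

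DDIT4 lies on the plus strand of chromosome 10 of GRCh38, from 72273919 to 72276036, and no other gene of GENCODE release 44 shares its exons. Its level was 4.14, 4.41 and 3.42 CPM in control replicates 1 to 3, 67.2, 76.3 and 72.0 with CoCl2, and 66.9, 68.8 and 61.8 with OD. All treated libraries were far above all control libraries, and the CoCl2 and OD libraries overlapped. DDIT4 rose 17.9-fold with CoCl2 (log2 fold change 4.16, standard error 0.086, adjusted p = 2.05e-48 by edgeR) and 16.4-fold with OD (4.04, standard error 0.085, adjusted p = 6.92e-47). It had the largest rise of the 10 genes with OD and the next to largest, after GADD45G, with CoCl2. Among all tested genes its log2 fold change was at percentile 99.8 with OD and 99.0 with CoCl2.

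The level of DDIT4 was close with both chemicals. The log2 difference of CoCl2 from OD was 0.12, with a 95% interval from 0.012 to 0.23 (edgeR, adjusted p = 0.0364, from 5.42e-09 to 0.879 over the alternatives), and the exact permutation test gave 0.2. Its sign depended on the scaling, with -0.0092 for upper-quartile factors and -0.42 for library size alone.

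DDIT4L, which encodes the related protein REDD2, lies at 100185870 to 100190782 on the minus strand of chromosome 4. It was barely expressed, with 7 to 10 counts in each control library, 9 to 13 with CoCl2 and 24 to 28 with OD. These counts corresponded to 0.343 to 0.538 CPM in control cells, 0.622 to 0.696 under CoCl2 and 1.07 to 1.44 under OD, and the OD libraries were above all others. DDIT4L was called with OD (log2 fold change 1.55, standard error 0.32, adjusted p = 2.58e-05 by edgeR) and not with CoCl2 (0.65, standard error 0.39, adjusted p = 0.118). The log2 difference of CoCl2 from OD was -0.90 (95% interval from -1.51 to -0.29, edgeR, adjusted p = 0.00559, from 1.95e-05 to 0.0823 over the alternatives). Within a library, the log2 ratio of DDIT4 to DDIT4L counts was 3.17 ± 0.37 (SD, n = 3) in control cells, 6.68 ± 0.014 under CoCl2 and 5.69 ± 0.29 under OD, without overlap between conditions. The SD of 0.014 rests on 9 to 13 DDIT4L counts per library and is smaller than the counting noise at such counts.

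The promoter of DDIT4 is shown because this gene rose steeply with both HIF-stabilising chemicals. The window, taken from RefSeq on GRCh38.p14, runs from 250 bases before to 50 bases after the transcript start, 5′ to 3′ on the plus strand (chr10:72273674-72273973). Capitals mark ACGTG and GCGTG, the core letters of a HIF site, on either strand. The window held 1 ACGTG, whose first base is at -125 from the transcript start, and 3 GCGTG at -219, -53 and 26. At least 1 of these 5-letter words was found in 48.4% of 35116 such windows of all genes, so a match is a description of the sequence and no sign of binding. GADD45B also held 4 such matches and ARRDC4 held 6, but some of these overlap, unlike those of DDIT4. In both genes 1 CACGTG counted as 2 matches, and the ARRDC4 matches at -142 and -139 share bases.
DDIT4: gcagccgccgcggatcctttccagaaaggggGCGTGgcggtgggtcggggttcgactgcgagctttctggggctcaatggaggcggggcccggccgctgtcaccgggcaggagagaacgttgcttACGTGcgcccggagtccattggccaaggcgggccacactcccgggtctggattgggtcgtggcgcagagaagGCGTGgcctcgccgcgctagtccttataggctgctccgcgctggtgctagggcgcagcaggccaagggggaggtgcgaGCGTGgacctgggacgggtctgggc

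Of the sestrins, SESN2 rose with both chemicals, more with CoCl2. SESN2 lies at 28259518 to 28282491 on the plus strand of chromosome 1. Its level was 13.7, 13.5 and 14.0 CPM in control replicates 1 to 3, 96.0, 90.8 and 91.1 with CoCl2, and 37.5, 38.8 and 36.9 with OD. The 3 conditions did not overlap, with OD between control and CoCl2. SESN2 rose 6.74-fold with CoCl2 (log2 fold change 2.75, standard error 0.063, adjusted p = 7.03e-46 by edgeR) and 2.75-fold with OD (1.46, standard error 0.067, adjusted p = 1.43e-28). The log2 difference of CoCl2 from OD was 1.29 (95% interval from 1.19 to 1.40, edgeR, adjusted p = 6.62e-32), and for library size alone it was 0.75, which is under the fold change threshold.

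SESN1 and SESN3, which are known as p53 and FOXO target genes respectively, stayed under the fold change threshold in all 3 comparisons with TMM factors, but not between the chemicals with every scaling. SESN1 (minus strand of chromosome 6, from 108984309 to 109094846) had 17.6 to 18.7 CPM in control libraries, 12.7 to 13.3 with CoCl2 and 22.7 to 24.9 with OD. The CoCl2 libraries were thus the lowest and the OD libraries the highest, with no overlap. SESN1 had a log2 fold change of -0.49 with CoCl2 (edgeR, standard error 0.084, adjusted p = 3.75e-07) and 0.40 with OD (standard error 0.072, adjusted p = 2.55e-06). The log2 difference of CoCl2 from OD was -0.88 (standard error 0.079, adjusted p = 6.71e-16 by edgeR), and it passed the threshold at -1.02 for upper-quartile factors and -1.43 for library size alone. Against control, the value with CoCl2 was -0.99 for library size alone.

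SESN3 (minus strand of chromosome 11, from 95165513 to 95232541) had 13.9 to 15.4 CPM in control libraries, 13.5 to 15.1 with CoCl2 and 24.9 to 26.1 with OD. Control and CoCl2 libraries overlapped, and the OD libraries were above both. Its log2 fold change was -0.053 with CoCl2 (95% interval from -0.22 to 0.12, adjusted p = 0.564 by edgeR) and 0.78 with OD (standard error 0.075, adjusted p = 2.68e-14). For library size alone the value with CoCl2 was -0.56, close to the shift of the median of all genes. The log2 difference of CoCl2 from OD was -0.83 (standard error 0.078, adjusted p = 3.56e-15 by edgeR), and it passed the threshold at -1.38 for library size alone.

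Ratios within a library need no scaling factor. The log2 ratio of SESN2 to SESN1 counts was -0.40 ± 0.035 (SD, n = 3) in control cells, 0.66 ± 0.060 with OD and 2.83 ± 0.061 with CoCl2, and no libraries overlapped between conditions. The balance of the sestrin transcripts shifted towards SESN2 with both chemicals and further with CoCl2. The log2 ratio of SESN3 to SESN1 was -0.31 ± 0.11 in control cells, 0.13 ± 0.10 under CoCl2 and 0.083 ± 0.071 under OD, and its difference between the chemicals of 0.042 was within the spread of the libraries (exact permutation test, p = 0.6).

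**Figure D3:**
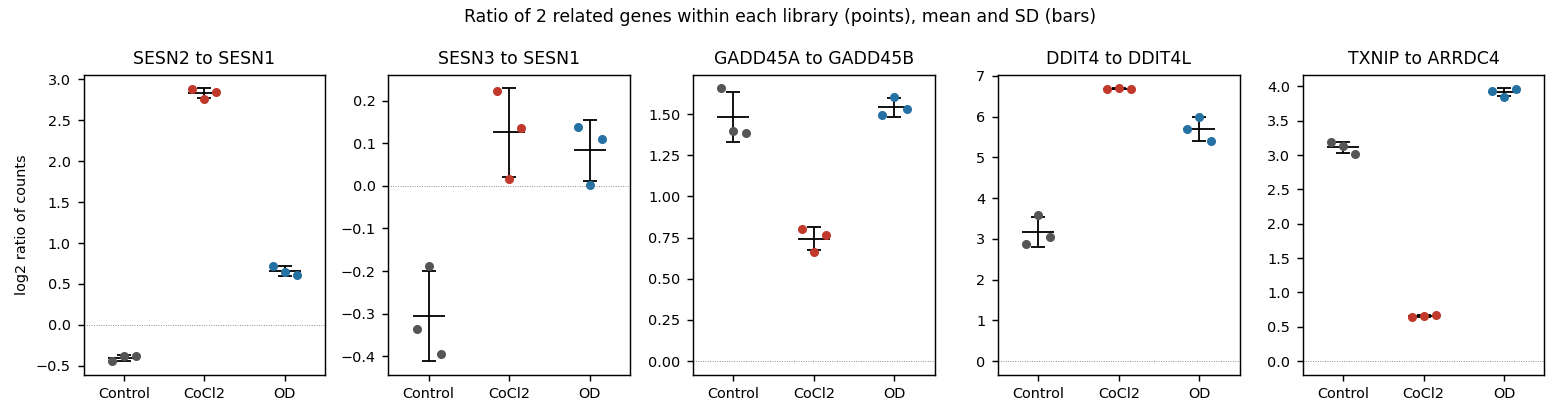
Log2 ratio of the counts of 2 related genes (vertical axis, its own range in each panel) in the 3 libraries of each condition, with points for libraries and bars for the mean and SD. SESN2 to SESN1 climbs from control over OD to CoCl2, and TXNIP to ARRDC4 is 3.11 in control cells, 0.66 under CoCl2 and 3.92 under OD.

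All 3 GADD45 genes rose with CoCl2, and none passed the fold change threshold with OD. GADD45A lies at 67685201 to 67688334 on the plus strand of chromosome 1. Its level was 36.2, 37.2 and 37.9 CPM in control replicates 1 to 3, 343, 293 and 295 with CoCl2, and 49.9, 48.4 and 50.3 with OD. GADD45B lies at 2476122 to 2478259 on the plus strand of chromosome 19 and had 11.5, 14.1 and 14.5 CPM in control cells, 197, 185 and 173 with CoCl2, and 17.7, 15.9 and 17.4 with OD. GADD45G lies at 89605012 to 89606555 on the plus strand of chromosome 9 and had 2.37, 1.96 and 2.58 CPM in control cells, 82.0, 83.3 and 72.5 with CoCl2, and 2.82, 3.51 and 3.09 with OD. For each gene the CoCl2 libraries were several times above all others, and the OD libraries lay just above the control libraries.

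GADD45G rose most, 34.4-fold with CoCl2 (log2 fold change 5.11, standard error 0.097, adjusted p = 2.1e-50 by edgeR). GADD45B rose 13.9-fold (3.79, standard error 0.065, adjusted p = 1.93e-51) and GADD45A 8.37-fold (3.06, standard error 0.053, adjusted p = 2.92e-51). With OD the log2 fold changes were 0.42 for GADD45A (adjusted p = 5.68e-09), 0.35 for GADD45B (adjusted p = 0.000189) and 0.46 for GADD45G (adjusted p = 0.0151, from 0.00938 to 0.136 over the alternatives). The last of these values was not past an adjusted p of 0.05 without control replicate 2 (0.109), without OD replicate 2 (0.0921) or with DESeq2 on 6 libraries (0.136).

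In the direct test the log2 difference of CoCl2 from OD was 2.65 for GADD45A (95% interval from 2.55 to 2.75), 3.44 for GADD45B (from 3.32 to 3.57) and 4.65 for GADD45G (from 4.47 to 4.83), with adjusted p of 9.71e-49, 3.01e-50 and 6.13e-50 by edgeR. The family's balance moved as well. The log2 ratio of GADD45A to GADD45B counts was 1.48 ± 0.15 (SD, n = 3) in control cells, 1.54 ± 0.058 with OD and 0.74 ± 0.070 with CoCl2, where the CoCl2 libraries lay below all others and control and OD libraries overlapped.

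The promoters of GADD45B and GADD45G are shown because these genes had the steepest rises of the family with CoCl2. GADD45A was not matched in the promoter table. Both windows run from 250 bases before to 50 bases after the RefSeq transcript start on GRCh38.p14, on the plus strand (chr19:2475877-2476176 and chr9:89604762-89605061), and capitals mark the E-box CACGTG. Each held 1 E-box, with the first base at -168 in GADD45B and -143 in GADD45G, and 7.26% of the 35116 windows held at least 1. The E-box contains the HIF core ACGTG on both strands. GADD45G also held 1 match to TGATGNAA, the letters of a site for ATF4, which starts at -102, reads TTACATCA on this strand and was the only one in the windows of these genes, against 3.62% of all windows. No match to GAANNTTC, the only arrangement of the heat-shock letters searched, was found in the 12 windows, against 6.77% of all windows. Other arrangements of these letters were not searched, so their absence is not shown. With 12 windows, finding no match cannot be told apart from that share.
GADD45B: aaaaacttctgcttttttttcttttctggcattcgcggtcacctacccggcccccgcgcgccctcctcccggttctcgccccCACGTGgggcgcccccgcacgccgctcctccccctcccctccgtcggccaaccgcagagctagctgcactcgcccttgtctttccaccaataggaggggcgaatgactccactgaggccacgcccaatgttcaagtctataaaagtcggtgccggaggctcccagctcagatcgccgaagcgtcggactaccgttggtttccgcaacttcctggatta
GADD45G: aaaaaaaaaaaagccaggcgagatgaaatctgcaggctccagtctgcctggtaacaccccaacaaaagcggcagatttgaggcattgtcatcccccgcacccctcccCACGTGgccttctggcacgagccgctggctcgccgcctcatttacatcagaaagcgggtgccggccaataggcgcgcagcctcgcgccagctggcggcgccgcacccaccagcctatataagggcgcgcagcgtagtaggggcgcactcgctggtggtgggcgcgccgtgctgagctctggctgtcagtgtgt

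TXNIP and ARRDC4, the pair that MondoA and ChREBP are known to regulate together, responded in opposite order to the chemicals. TXNIP lies at 145992435 to 145996579 on the minus strand of chromosome 1. Its level was 41.8, 44.4 and 41.2 CPM in control replicates 1 to 3, 68.0, 74.2 and 64.4 with CoCl2, and 141, 140 and 153 with OD. ARRDC4 lies at 97960703 to 97973833 on the plus strand of chromosome 15 and had 4.57, 5.05 and 5.05 CPM in control cells, 43.7, 46.9 and 40.3 with CoCl2, and 9.17, 9.68 and 9.80 with OD. The 3 conditions did not overlap for either gene, with OD highest for TXNIP and CoCl2 highest for ARRDC4.

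TXNIP rose 3.40-fold with OD (log2 fold change 1.76, standard error 0.053, adjusted p = 2.01e-38 by edgeR). With CoCl2 its log2 fold change was 0.69 (standard error 0.057, adjusted p = 1.91e-17), under the fold change threshold, or 0.18 for library size alone. ARRDC4 rose 8.86-fold with CoCl2 (log2 fold change 3.15, standard error 0.090, adjusted p = 1.01e-40). With OD its log2 fold change was 0.96 (standard error 0.11, adjusted p = 1.42e-11), just under the threshold, or 1.003 for library size alone, which passed it. The direct test put TXNIP lower with CoCl2 than with OD, with a log2 difference of -1.07 (95% interval from -1.18 to -0.97, adjusted p = 9.36e-29), and ARRDC4 higher, with 2.19 (from 2.03 to 2.34, adjusted p = 1.85e-35).

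Within a library, the log2 ratio of TXNIP to ARRDC4 counts was 3.18, 3.13 and 3.02 in control replicates 1 to 3, 0.64, 0.66 and 0.68 with CoCl2, and 3.94, 3.85 and 3.96 with OD. It was thus lower with CoCl2 by 2.45 and higher with OD by 0.80, far beyond the SD of 0.019 to 0.083 within a condition, with the smallest p that the exact permutation test allows (0.1). This ratio does not depend on the scaling of the libraries.

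The promoters of TXNIP and ARRDC4 are shown because the carbohydrate response element by which MondoA and ChREBP are known to act is a pair of E-box-like words a fixed distance apart. Capitals mark CACGNG on either strand, and the windows run from 250 bases before to 50 bases after the RefSeq transcript start on GRCh38.p14 (chr1:145996530-145996829 on the minus strand for the upstream start of TXNIP and chr15:97960453-97960752 on the plus strand for ARRDC4). TXNIP held 4 such words, of which a pair (CACGAG and CACGAG, with first bases at -88 and -77) was separated by 5 bases. Such a pair was found in only 27 of 35116 windows (0.0769%). ARRDC4 held 3 CACGNG words, 1 of them CACGTG and 2 overlapping each other, and no pair at that distance, while at least 1 CACGNG was found in 30.5% of all windows. Only pairs of exact CACGNG words 5 bases apart were searched, so the absence of other forms of the element from ARRDC4 is not shown. ARRDC4 also held the AP-1 letters TGANTCA as TGACTCA at -119, against 7.71% of all windows. The other window of TXNIP, at a downstream start, held neither CACGNG nor TGANTCA. The letters CCAAT (34.6% of all windows) and TGANNNNGC of the antioxidant response element (41.8%) were searched as well, and the windows of DDIT4L and SESN3 and 1 of the 3 of SESN1 held none of the motifs.
TXNIP: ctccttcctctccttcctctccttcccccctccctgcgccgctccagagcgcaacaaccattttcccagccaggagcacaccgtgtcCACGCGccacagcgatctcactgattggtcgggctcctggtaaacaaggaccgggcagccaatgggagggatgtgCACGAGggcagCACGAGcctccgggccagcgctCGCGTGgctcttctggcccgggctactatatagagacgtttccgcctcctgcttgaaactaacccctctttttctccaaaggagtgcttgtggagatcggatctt
ARRDC4: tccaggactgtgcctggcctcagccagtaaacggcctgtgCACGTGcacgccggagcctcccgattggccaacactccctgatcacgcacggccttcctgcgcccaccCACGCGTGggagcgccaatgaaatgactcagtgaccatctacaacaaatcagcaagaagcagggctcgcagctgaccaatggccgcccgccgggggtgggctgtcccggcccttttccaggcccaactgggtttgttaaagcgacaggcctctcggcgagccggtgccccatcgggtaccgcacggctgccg

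**Figure D4:**
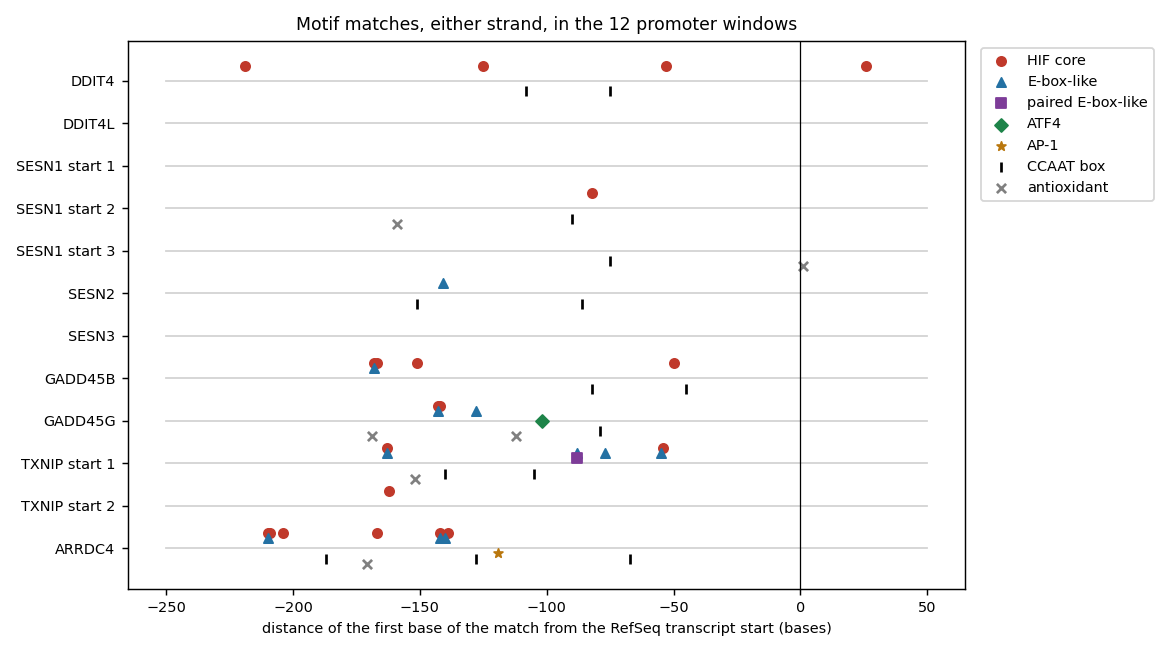
Distance of the first base of each motif match from the RefSeq transcript start (horizontal axis, in bases) in the 12 windows of the 9 genes that were matched, with 1 row per start and 1 symbol per motif. The paired E-box-like match lies in the TXNIP window alone, and DDIT4 has 4 HIF core matches.

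Levels were also compared per length, as CPM per kb of exonic sequence in GENCODE release 44. The length takes in the exons of all annotated transcripts, whether expressed here or not, so the order of the genes depends on the annotation. GADD45A was the highest of the 10 genes in control cells at 19.3 ± 0.45 (SD, n = 3). TXNIP followed at 11.8 ± 0.47, GADD45B at 6.24 ± 0.77, SESN2 at 3.97 ± 0.078 and SESN1 at 2.50 ± 0.075. DDIT4 at 1.88 ± 0.24 and GADD45G at 1.74 ± 0.24 did not differ beyond their spread, and SESN3 at 1.39 ± 0.073, ARRDC4 at 1.20 ± 0.068 and DDIT4L at 0.142 ± 0.034 were lowest. With CoCl2 the 3 GADD45 genes led, at 161 ± 14.8 for GADD45A, 86.6 ± 5.54 for GADD45B and 59.9 ± 4.44 for GADD45G, ahead of DDIT4 at 33.9 ± 2.14 and SESN2 at 26.8 ± 0.84. With OD the order was led by TXNIP at 40.1 ± 1.99, DDIT4 at 31.1 ± 1.73 and GADD45A at 25.7 ± 0.50, and SESN3, GADD45G and ARRDC4, at 2.35 to 2.39, did not differ beyond their spread. DDIT4 had thus moved from the lower part of the order into the first 4 with either chemical.

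**Figure D5:**
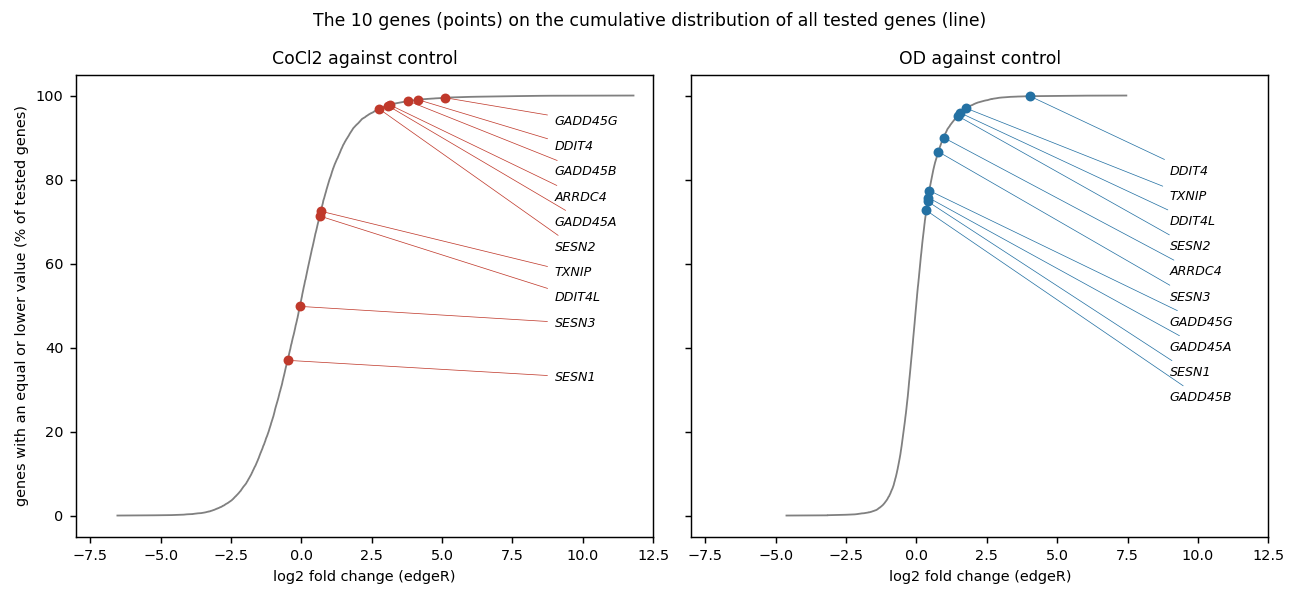
Cumulative share of all tested genes (vertical axis, in %) against the log2 fold change (horizontal axis) with CoCl2 and with OD, with the 10 genes marked on the line. With CoCl2, 6 of them lie at percentile 96.9 or higher, TXNIP is at 72.5 and SESN1 at 37.0, whereas with OD all 10 lie at 72.6 or higher.

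The genes nearest in pattern were found by the root mean square difference of log2 CPM, centred on control cells, over the 9 libraries among 13420 genes whose mean reached 1 CPM. Nearest to DDIT4 were BNIP3 (0.26) and BNIP3L (0.28), which encode mitophagy receptors of the hypoxic response. Nearest to GADD45A were ZNF823 (0.094) and OSER1 (0.10), and nearest to GADD45B were SAT1 (0.099), an enzyme of polyamine breakdown, and BAG3 (0.12), a co-chaperone. The nearest to GADD45G were ZNF280A (0.22) and MLLT11 (0.37). Nearest to TXNIP were STC2 (0.099) and ALS2CL (0.11), and nearest to ARRDC4 were the phosphatase gene DUSP1 (0.092) and ZSWIM6 (0.11). SESN2 was nearest to LAMB3 (0.075) and to ALDOA (0.12), of which 54.2% of the exonic bases are shared with other genes. SESN1 was nearest to PJA1 (0.043) and SOX13 (0.057), SESN3 to ERG28 (0.066) and ZMIZ1 (0.069), and DDIT4L to FOXO4 (0.18) and AQP3 (0.18). The 9 libraries fall into 3 conditions, so nearness describes these conditions only.

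Lists of genes around these 10 were counted in the same way. Of 38 tested genes of mTORC1 control (the TSC, Rag, GATOR, folliculin and AMPK subunits), 9 were upregulated and 3 downregulated with CoCl2 (19.9% and 23.4% of all tested genes), with a median log2 fold change of -0.0060 beside -0.049 over all genes. AKT1S1, an inhibitory subunit of mTORC1, had 2.75, CASTOR2 2.31 and RRAGC, a Rag GTPase, 2.25. With OD, 2 were upregulated and 1 downregulated (9.09% and 4.16% of all tested genes), namely RRAGD at 2.76, FNIP2, a folliculin partner, at 1.47 and TBC1D7, a TSC subunit, at -1.16. Between the chemicals 7 were higher and 2 lower with CoCl2 (17.5% and 23.8% of all tested genes). With library size alone the counts were 6 and 8 with CoCl2, and 4 and 11 between the chemicals.

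Of the 3 tested α-arrestins besides TXNIP and ARRDC4, ARRDC3 rose with both chemicals, with log2 fold changes of 3.46 with CoCl2 and 1.08 with OD, and it was higher with CoCl2 than with OD (2.38, adjusted p = 6.51e-47 by edgeR). ARRDC3 thus had the order of ARRDC4, not that of TXNIP. ARRDC2 had 1.31 with CoCl2, and ARRDC1 was lower with CoCl2 than with OD (-1.16). With library size alone 1 of the 3 was called higher and 1 lower with CoCl2, in place of 2 and 0. Of 6 tested partners of TXNIP, TXNRD1 (3.26) and TXN (1.46), the thioredoxin reductase and thioredoxin of the cytosol, rose with CoCl2, and TXNRD2 of the mitochondria fell (-1.24). Of 6 tested partners of the GADD45 proteins, MAP2K7 rose with CoCl2 (1.29) and CCNB1, a mitotic cyclin, fell with OD (-1.60). Of all tested genes, 19.9% were upregulated and 23.4% downregulated with CoCl2, and 9.09% and 4.16% with OD. Between the chemicals 17.5% were higher and 23.8% lower with CoCl2. Lists of 3 or 6 genes are too short to tell their counts from these shares. With library size alone 1 of the TXNIP partners was called higher and 2 lower with CoCl2, and of the GADD45 partners 0 higher and 3 lower.

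Among 18 transcription factors that are known to act on these genes, 6 were upregulated and 2 downregulated with CoCl2, beside 19.9% and 23.4% of all tested genes. With OD 4 were upregulated, beside 9.09%. MLXIPL, which encodes ChREBP, had 3.04 CPM in control cells, 0.292 under CoCl2 and 6.85 under OD. It fell with CoCl2 (log2 fold change -3.35, standard error 0.30, adjusted p = 8.45e-16 by edgeR), rose with OD (1.17, standard error 0.14, adjusted p = 7.01e-11) and was lower with CoCl2 than with OD by -4.52 on the log2 scale (adjusted p = 1.42e-25). The mean of MLXIPL with CoCl2 was below that of DDIT4L in control cells (0.425 CPM). The sizes of its fall and of its difference between the chemicals thus rest on few counts. MLXIP, which encodes MondoA, was more abundant, at 60.8 CPM in control cells, 46.6 under CoCl2 and 67.5 under OD. Their partner MLX had 50.5, 45.0 and 38.2 CPM, and neither MLXIP nor MLX was called in any comparison. ATF3, a stress-induced factor, rose with both (2.46 with CoCl2 and 1.90 with OD), as did FOXO1 with CoCl2 (1.61) and FOXO4 with OD (1.49). With library size alone the counts were 3 and 2 with CoCl2 and 5 upregulated with OD. Only transcript levels were measured, not the activity of these factors.

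Of 17 target genes of ATF4, the factor of the integrated stress response, 6 were upregulated with CoCl2 and 9 with OD, beside 19.9% and 9.09% of all tested genes, with medians of 0.50 and 1.28. The largest were CTH (3.63) and SLC7A11 (3.43), of cysteine supply, and ATF3 (2.46) with CoCl2, and SLC7A11 (2.12), ASNS (2.10) and CTH (2.05) with OD, where ASNS had a mean of 0.898 CPM in control cells. In the direct test 3 were higher with CoCl2 and 7 with OD, beside 17.5% and 23.8% of all tested genes. Of 20 tested target genes of p53, 8 rose and 4 fell with CoCl2, beside 19.9% and 23.4% of all tested genes, and 6 rose with OD, beside 9.09%, with medians of 0.28 and 0.37. Between the chemicals 5 had the higher level with CoCl2 and 3 with OD, beside 17.5% and 23.8%, or 2 and 6 for library size alone. The largest with CoCl2 were the CDK inhibitor gene CDKN1A (5.09), PLK2 (3.36) and GDF15 (2.83), and the largest with OD were CDKN1A (2.98), GDF15 (1.79) and TP53INP1 (1.65). Caco-2 cells are known to lack functional p53, and the list takes its name from work in other cells. With library size alone, 4 ATF4 targets were called higher and 2 lower with CoCl2, and 6 and 7 of the p53 targets.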

How the data were processed

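Messenger RNA was measured in 9 libraries of uCaco-2 cells, 3 each of control, CoCl2 and OD, grouped by the sample titles. The authors prepared stranded poly(A) libraries, trimmed reads with cutadapt 2.10, mapped them with STAR 2.7.5b on GRCh38.p13 and counted reads by GENCODE gene. The authors deposited raw counts per gene symbol, and the counting tool and its strand setting are not given in the sources used here. All 9 columns were mapped and 0 were left unused.

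edgeR 4.0.16 in R 4.3.3 gave TMM factors, its expression filter and a robust quasi-likelihood fit over 9 libraries with 1 mean per condition, adjusted over 15944 genes by the Benjamini-Hochberg procedure. Standard errors are the log2 fold change divided by the root of the F statistic. Like the edgeR p-values and intervals, they rest on the moderated spread, which can be smaller or larger than that of a gene's own libraries. Ratios within a library used counts with 0.5 added, and single values had exact two-sided permutation tests. Replicate pairs differed beyond sampling noise (chi-square per degree of freedom of 1.82 to 3.32), so each counted as 1 sample. Without molecular identifiers, PCR copies stay in the counts. On simulated counts with the CoCl2 and control design, edgeR recovered 100 of 100 genes changed by 1.5 on the log2 scale among 14876 genes and called 2 unchanged genes. DESeq2 1.42.0 recovered 97 of these 100 among 15942. With CoCl2, 19.9% of all tested genes were called higher and 23.4% lower. Recovery with that many changed genes was not tested.

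The 10 genes and the lists around them were chosen with earlier results of these data known. Of each list at most the 3 largest called changes per comparison were named, and 2 neighbours in pattern per gene. Genes named beyond the rule, among them ARRDC1, MLXIP, MLX, VIL1, ALB and COL1A1, were chosen after their values were seen. Promoters came from RefSeq (GRCh38.p14), where 9 of the 10 genes were matched by symbol with 12 windows of 300 bases, and gene coordinates and exonic lengths from GENCODE release 44 on GRCh38. Motifs were matched on both strands. The alternatives were other scaling factors, count filters, DESeq2, fits on 6 libraries, the replicate block, each library left out, other call rules and another prior count.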

Additional observations from a re-analysis of the deposited data

How the results depend on the processing

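Of 446 recomputed log2 fold changes of the 10 genes, 436 kept sign and call, 7 gained a call and 1 lost it. The other 2 turned sign without a call, both for the difference of DDIT4 between the chemicals, which was -0.0092 with upper-quartile factors and -0.42 with library size alone. The number of the 10 genes called lower with CoCl2 than with OD was 1, and it was 3 with upper-quartile factors, 4 with library size alone, 4 by the adjusted p alone, 0 with glmTreat (a test against a log2 fold change of 1) and 1 to 2 with 1 library left out, where 2 was reached without OD replicate 2 because DDIT4L passed at -1.02. By the adjusted p alone, 1 gene was lower with CoCl2 and 10 were higher with OD, in place of 0 and 4. Same-numbered libraries did not deviate together (correlations of -0.064 to 0.065 over 9 pairs), and with the replicate block 6 genes were upregulated with CoCl2, 4 with OD, and 5 higher and 1 lower between the chemicals, as without it. All 105 recomputed ratios moved by less than 1 SD. Leaving out 1 of 3 libraries cannot move a mean by 1 SD, so for those alternatives this outcome was fixed in advance. Only the prior count of 2 could have given another. For the lists against control, library size alone lowered the number of genes called higher with CoCl2 in every list and raised that called lower in all but the transcription factors, where it stayed at 2, and RLE and upper-quartile factors were added after seeing the data. At these depths DDIT4L, with 7 to 28 counts per library, had log2 standard errors between 0.30 and 0.39, and GADD45A between 0.051 and 0.058. DDIT4L was not tested with at least 10 counts in every library or, for CoCl2 against control, by edgeR on 6 libraries.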
